A study of Homo sapiens with 2 samples.

Results

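The semaphorins, their plexin receptors and the neuropilin co-receptors were examined in 2 melanoma cell lines. Members were taken by symbol: every gene named SEMA with a digit, every plexin of the A, B, C and D groups, and NRP1 and NRP2, whatever their level. This gave 31 genes out of 19775 with a value, made up of 20 semaphorins, 9 plexins and 2 neuropilins, measured by 85 of 54675 probe sets. IGR39 came from a primary cutaneous melanoma labelled achromic, that is, without pigment. IGR37 came from a melanoma metastasis in a lymph node. The labels name no treatment, allele or agent, both lines were grown in the same serum-containing medium, and the design text calls primary and metastatic lines of the series related. Expression was read from total RNA on 1 Affymetrix Human Genome U133 Plus 2.0 array per line, and the breast lines that the design text mentions were not analysed here. A line is a single culture here, so every difference is one between these cultures, with no replicate error and no test.

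Semaphorins are secreted or membrane-bound guidance cues that steer axons, vessels and migrating cells. They act through plexins, large receptors whose cytoplasmic part switches off small GTPases of the Ras and Rap type and so loosens adhesion and reshapes actin. Class 3 semaphorins are secreted and mostly need a neuropilin to bind the ligand beside the plexin, while neuropilins also bind VEGF. In the skin and in the neural crest, from which melanocytes come, the same cues guide migration, and several members have been studied in melanoma.

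Values are log2 expression levels after RMA, and a difference is the log2 level in IGR37 minus that in IGR39. A difference of 1 is 2-fold. A gene counted as measurable at log2 6 or above on at least 1 array, and each gene's value is that of its brightest probe set. The arrays spanned 2.42 to 14.10 in IGR39 and 2.39 to 14.04 in IGR37, with 23.9% and 24.3% of probe sets at log2 6 or above. Differences of the 18 hybridisation spike-in probe sets ran from -0.14 to 0.21, those of the 24 poly-A spike-in probe sets from -0.47 to 0.68, and probe sets of the same gene scattered around their mean difference with a pooled SD of 0.40. Of 7 melanocyte lineage markers measured, all were at log2 6 or above in IGR37, where they lay between 8.38 and 13.05, and only MITF, at 7.57, reached it in IGR39. The other 6 lay under log2 6 in IGR39, among them SOX10 at 4.10, MLANA at 3.33 and TYR at 4.22, so the defining markers of the lineage were mostly not measurable in the line from the primary tumour. These markers differ between the same 2 arrays as the members do, and their part in these differences was not tested.

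The family split in both directions. Of the 31 members, 15 reached log2 6 on at least 1 array and 16 did not. Among the 15, 3 were higher in IGR37 by at least 2-fold (SEMA6A, PLXNC1 and SEMA5A), 4 were lower (NRP1, SEMA3C, SEMA3A and PLXNB2) and 8 lay within 2-fold. Across all 8501 genes at this level, 11.4% were higher by 2-fold or more and 9.50% were lower. At 4-fold or more, 2 members were higher (SEMA6A and PLXNC1) and 3 lower (NRP1, SEMA3C and SEMA3A), against 3.71% and 4.11% of all genes at this level. Counted over all 31 members at any level, the same 3 and 4 genes passed, against 5.80% and 4.85% of all 19775 genes. In 6 of the 7 the dimmer line lay under log2 6, as it did in 50.9% of all genes at least 2-fold apart. These 6 genes entered the count through the line where they were high, and their number is no support for a shift of the family. The other 8 members at this level differed by -0.36 to 0.94. The median difference of the 15 was -0.07, beside 0.07 over all 8501 genes.

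**Figure D1:**
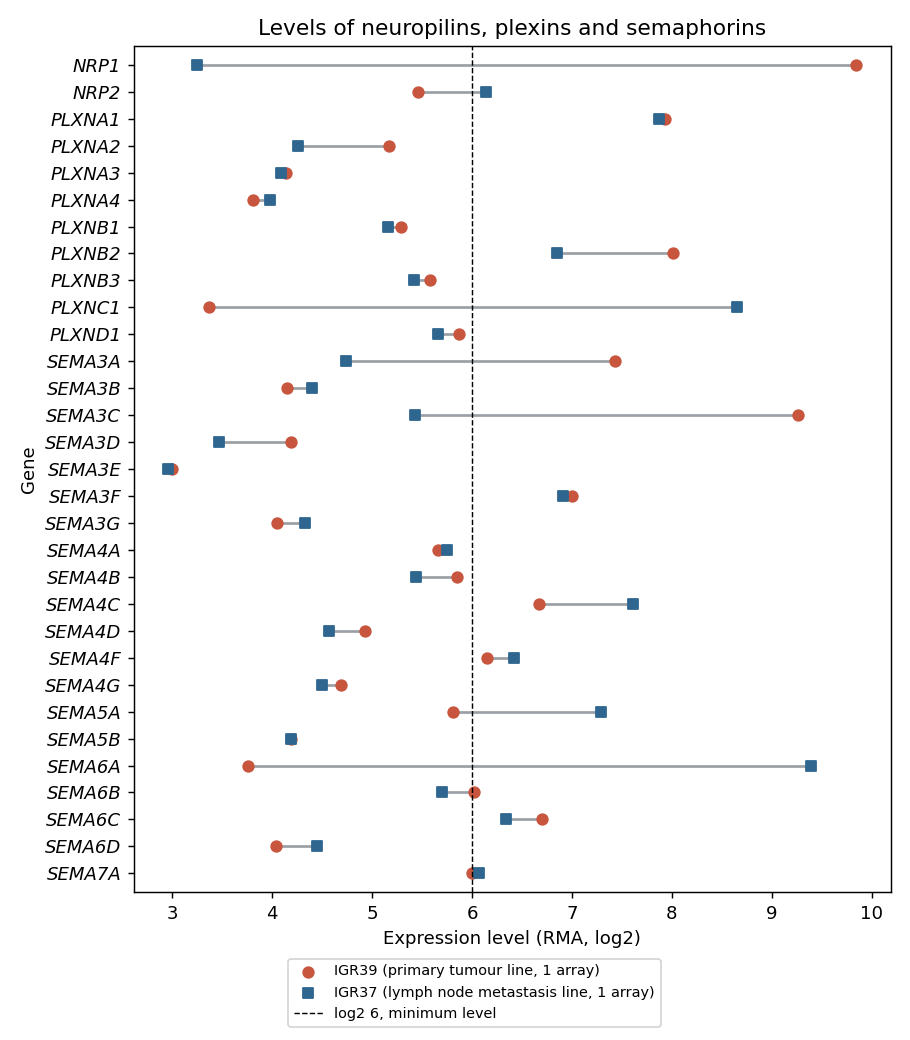
Log2 level of each of the 31 genes in IGR39 (circles) and IGR37 (squares), 1 array each, with the minimum of log2 6 dashed. The long bars of NRP1, SEMA3A and SEMA3C point to the lower level in IGR37, those of PLXNC1 and SEMA6A to the higher, while 16 genes stay left of the dashed line in both lines.

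**Figure D2:**
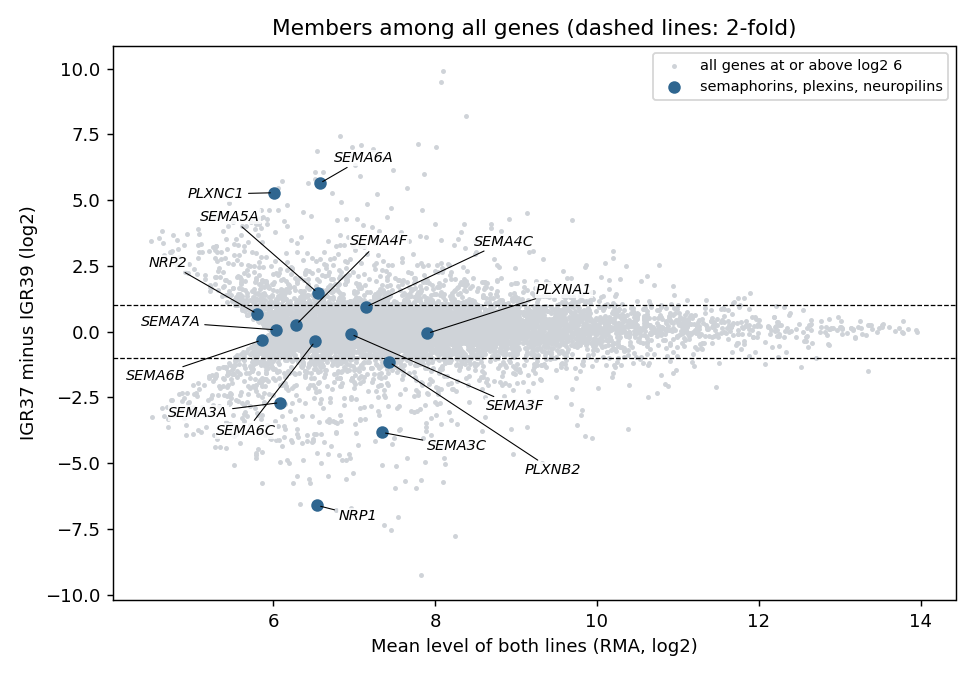
Difference between the lines against the mean log2 level for the 8501 genes at log2 6 or above in the brighter line (grey) and the 15 members among them (blue). NRP1, SEMA6A and PLXNC1 lie at the edge of the cloud, with differences of -6.60, 5.63 and 5.28, and PLXNA1 and SEMA3F lie near 0.

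Among the secreted class 3 ligands, SEMA3C and SEMA3A were lower in IGR37. SEMA3C, a guidance cue of neural crest cells in the developing outflow tract of the heart, was at log2 9.26 in IGR39 against 5.43 in IGR37, a difference of -3.83. Its second probe set was at 6.16 and 4.11, so both probe sets of the gene were lower in the metastasis line, by different amounts. SEMA3A, the classical repellent of sensory and sympathetic axons, was at 7.44 in IGR39 against 4.74 in IGR37, a difference of -2.69. The 2 other SEMA3A probe sets were dim in both lines, between 2.87 and 3.36, and differed by -0.05 and -0.36. SEMA3F, the ligand of NRP2 and a repellent of lymphatic and blood vessel cells, was at 7.0 and 6.91 and so lay within the spread of probe sets. SEMA3B, SEMA3D, SEMA3E and SEMA3G stayed under log2 6 in both lines. SEMA3A, SEMA3C, SEMA3D and SEMA3E all lie on chromosome 7, and of these SEMA3D was at 4.19 and 3.47 and SEMA3E at 3.0 and 2.96.

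Promoter windows were read for SEMA3C, SEMA5A, PLXNC1 and PLXNB2, which differed by at least 2-fold, because the title of the series speaks of an epigenetically regulated gene. The windows, from RefSeq on GRCh38.p14, run from 250 bases before a transcription start to 50 bases after it. Windows of NRP1, SEMA6A and SEMA3A were not analysed here. The sequences are written 5′ to 3′ along the gene, and capitals mark CpG dinucleotides, the sites that DNA methylation uses. SEMA3C has 2 starts in the table, shown because they differ most in CpG content. The outer start is at chr7:80922340-80922639 and the inner start at chr7:80919002-80919301, both on the minus strand.
SEMA3C outer start: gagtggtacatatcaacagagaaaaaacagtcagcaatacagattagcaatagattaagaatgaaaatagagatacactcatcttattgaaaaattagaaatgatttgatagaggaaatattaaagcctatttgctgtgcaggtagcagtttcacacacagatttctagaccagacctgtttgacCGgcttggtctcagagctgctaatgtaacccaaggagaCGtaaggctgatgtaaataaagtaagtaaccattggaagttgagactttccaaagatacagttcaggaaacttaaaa
SEMA3C inner start: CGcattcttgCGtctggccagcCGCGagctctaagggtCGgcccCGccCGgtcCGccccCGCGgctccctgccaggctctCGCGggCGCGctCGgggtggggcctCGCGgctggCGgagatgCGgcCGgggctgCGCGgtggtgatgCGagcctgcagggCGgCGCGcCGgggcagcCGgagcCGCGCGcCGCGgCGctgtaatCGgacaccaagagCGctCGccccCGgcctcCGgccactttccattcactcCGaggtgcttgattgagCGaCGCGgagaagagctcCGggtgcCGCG
The outer window held 2 CpG and 36.0% G and C, and the inner window 46 CpG and 75.7%. The median over all 35116 windows of this length was 14 CpG, with quartiles of 4 and 28. The arrays do not tell which start the RNA came from, and no methylation was measured in the data used here.

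Of the membrane-bound semaphorins, SEMA6A and SEMA5A were higher in IGR37. SEMA6A, a transmembrane ligand that also acts as a receptor in axon and granule cell migration, was at log2 3.76 in IGR39 against 9.39 in IGR37, a difference of 5.63. It ranked 22 from the top among the differences of all 8501 genes. The 3 next probe sets of SEMA6A were at 3.64 and 8.88, 4.83 and 6.54, and 3.04 and 7.41, all higher in the metastasis line. Another stayed near background, at 3.30 and 3.28. SEMA5A, which carries thrombospondin repeats and can attract or repel axons, was at 5.81 in IGR39 against 7.29 in IGR37, a difference of 1.48. This was the smallest difference of its 3 probe sets, the others being at 5.31 and 7.58 and at 4.80 and 7.31, with differences of 2.27 and 2.50. All 3 SEMA5A probe sets reached log2 6 in IGR37 and none did in IGR39.

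The SEMA5A promoter is shown as a CpG-rich window of a gene that lay just under the minimum in IGR39, at 5.81. It lies at chr5:9546026-9546325 on the minus strand, at the outermost start of the gene.
SEMA5A: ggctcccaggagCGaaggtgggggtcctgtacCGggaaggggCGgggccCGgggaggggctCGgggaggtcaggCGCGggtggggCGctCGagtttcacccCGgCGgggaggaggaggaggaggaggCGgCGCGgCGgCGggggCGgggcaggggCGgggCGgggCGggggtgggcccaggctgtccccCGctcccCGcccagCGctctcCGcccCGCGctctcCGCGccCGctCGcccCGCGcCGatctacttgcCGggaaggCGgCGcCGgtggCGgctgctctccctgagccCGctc
This window held 39 CpG and 81.0% G and C, above the upper quartile of 28 CpG.

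The remaining membrane-bound semaphorins lay within 2-fold or under the minimum. SEMA4C, a ligand of PLXNB2, was at log2 6.67 in IGR39 against 7.61 in IGR37. Its difference of 0.94 fell just inside the 2-fold limit, and its second probe set, at 5.99 and 6.72, differed by 0.73. SEMA4F was at 6.15 and 6.42, on a probe set of the type that can cross-hybridise, and its 2 other probe sets were higher in IGR37 by 0.30 and 0.38. SEMA6B was at 6.02 and 5.70 and SEMA6C at 6.70 and 6.34, both on probe sets of that same type, which is the sole probe set of SEMA6C. SEMA7A, a semaphorin tied to the membrane by a lipid anchor and a ligand of PLXNC1 and of integrins, was at 6.00 and 6.07. SEMA7A and SEMA6B were thus the members nearest to the minimum from above, each reaching it in 1 line only. SEMA4A, SEMA4B, SEMA4D, SEMA4G, SEMA5B and SEMA6D lay under log2 6 in both lines.

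The neuropilins differed in opposite directions. NRP1, the co-receptor of SEMA3A and of VEGFA, was at log2 9.84 in IGR39 against 3.24 in IGR37, a difference of -6.60 that ranked 9 from the bottom among 8501 genes. A second NRP1 probe set was at 7.85 and 4.36, a difference of -3.49. The 2 others were dim in both lines, at 4.07 and 3.43 and at 3.15 and 2.85. All 4 were lower in the metastasis line, but the size of the difference depended on the probe set, and the mean over the 4 was -2.76. NRP2, the co-receptor of SEMA3F and of VEGFC on lymphatic vessels, was at 5.46 and 6.14, a difference of 0.68. All 11 NRP2 probe sets were higher in IGR37, by 0.16 to 2.46, with a mean difference of 1.09. The brightest is 1 of 5 whose difference was under 1 while 6 exceeded it, and in IGR39 none of the 11 reached log2 6. NRP2 thus counted as within 2-fold on its brightest probe set. On the mean of all of them its difference exceeded 2-fold, but its mean level of 5.08 in IGR37 lay under the minimum. It was therefore not counted as higher on that mean.

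Markers of endothelial cells, which carry both neuropilins and PLXND1, were at background. None of 8 reached log2 6 in either line, their highest value was 4.98 (CLDN5 in IGR39), and the log2 of their summed level was 7.24 in IGR39 against 7.20 in IGR37. None of 5 lymphocyte or 6 macrophage markers reached the minimum either, with highest values of 4.14 and 5.14. Of 6 neuronal markers, NEFL was at 9.69 and 8.96 and SNAP25 at 5.39 and 7.73, and the other 4 stayed under log2 6. Of 5 fibroblast markers, COL1A1 was at 5.87 and 6.15 and LUM at 3.41 and 6.26, and of 5 keratinocyte markers only KRT10 reached the minimum, at 9.13 and 9.08. In cultures measured in bulk, fewer cells that carry a transcript and less of it per cell cannot be told apart.

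Among the plexins, PLXNC1 was higher in IGR37 and PLXNB2 lower. PLXNC1, the receptor of SEMA7A, was at log2 3.37 in IGR39 against 8.65 in IGR37, a difference of 5.28 that ranked 26 from the top among 8501 genes. A second probe set was at 3.48 and 6.22 and another at 3.30 and 5.36, both higher in the metastasis line. The remaining one was dim throughout, at 4.54 and 4.38, so 3 of the 4 probe sets shared the direction. PLXNB2, the receptor of SEMA4C, was at 8.01 in IGR39 against 6.85 in IGR37, a difference of -1.15 just beyond the 2-fold limit. It is the only one of the 7 genes at least 2-fold apart that reached log2 6 in both lines. Its call rests on that single probe set, since the other was at 3.68 and 3.95. PLXNA1, a plexin that pairs with neuropilins, was alike, at 7.94 and 7.87 on one probe set and at 7.02 and 7.11 on another.

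The other 6 plexins lay under the minimum in both lines. PLXND1, a receptor for SEMA3E and SEMA3C, was the nearest to it, at 5.87 and 5.66, and its 3 probe sets differed by -0.21 to -0.09. PLXNB1, the receptor of SEMA4D, was at 5.29 and 5.16 and PLXNB3 at 5.58 and 5.42. PLXNA2, a receptor for SEMA6A, was at 5.17 and 4.26, with differences of -1.32 to -0.19 on its 3 probe sets. PLXNA3 and PLXNA4 were at 4.14 and 4.09 and at 3.81 and 3.98. Over all 16 members under the minimum, differences ran from -0.91 to 0.41, and 0 were 2-fold or more.

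The PLXNC1 window at the outermost start is shown as that of the plexin with the largest difference. It lies at chr12:94148327-94148626 on the plus strand.
PLXNC1: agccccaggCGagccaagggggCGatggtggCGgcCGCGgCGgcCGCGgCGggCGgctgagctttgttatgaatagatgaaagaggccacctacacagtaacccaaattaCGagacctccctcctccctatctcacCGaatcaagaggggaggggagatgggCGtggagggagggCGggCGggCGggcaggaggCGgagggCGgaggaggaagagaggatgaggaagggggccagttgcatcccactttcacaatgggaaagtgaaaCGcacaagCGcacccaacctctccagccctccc
This window held 20 CpG and 64.0% G and C. Both strands of the windows were searched for an E-box with the M-box core (CATGTG), the E-box CACGTG, an AP-1 site (TGANTCA), a TEAD site (GGAATG) and a SOX site (ACAAAG). These stand in 11.1%, 7.26%, 7.71%, 14.0% and 16.1% of all 35116 windows. The PLXNC1 window held 1 SOX match and none of the others, a second PLXNC1 window at an inner start, with 9 CpG, held 1 AP-1 match and none of the others, and the windows of SEMA5A and both of SEMA3C held none of the 5. The window of PLXNB2, at an inner start, held 3 M-box matches, of which 2 overlap as a pair read from both strands. A match is only a run of letters, and the arrays do not tell whether a factor binds there.

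**Figure D3:**
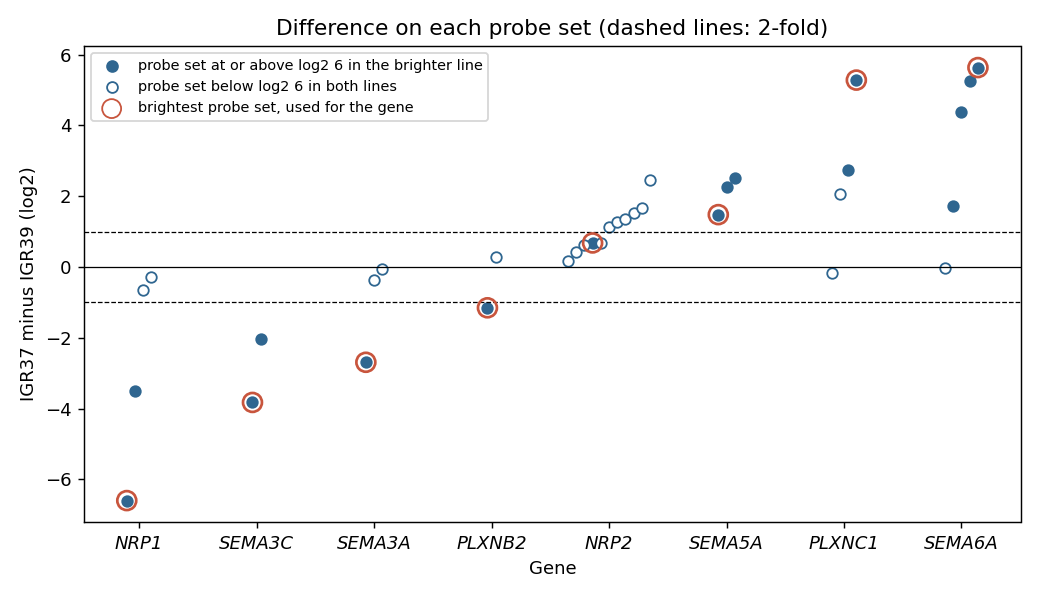
Difference between the lines on every probe set of 8 members, with filled points for probe sets at log2 6 or above in the brighter line, open points for dimmer ones, and a red ring for the brightest, used as the gene's value. Probe sets of NRP1, SEMA3C and SEMA3A lie below 0, all 11 of NRP2 and all 3 of SEMA5A lie above 0, and PLXNC1 and SEMA6A each have a dim probe set near 0, while the other dim one of PLXNC1 lies at 2.06.

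Agreement between probe sets was read only where they could be measured. Of the 7 genes at least 2-fold apart, 5 (NRP1, SEMA3C, SEMA5A, PLXNC1 and SEMA6A) had at least 2 probe sets at log2 6 or above, and in each of these all such probe sets lay on the same side. SEMA3A and PLXNB2 had 1. Over the 8 members with at least 2 such probe sets, the pooled SD of the differences of the same gene's probe sets was 1.34, beside 0.40 over 3178 genes. Within these genes the probe sets differed more in size than in direction, with -6.60 and -3.49 for NRP1 and 5.63 and 1.71 at the ends of the range for SEMA6A. A probe set that reaches the minimum through 1 line alone favours a shared direction.

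Known ligand and receptor pairs were set side by side in each line, from 13 pairs listed with the values known. In IGR39, 3 pairs had both genes at log2 6 or above, namely SEMA3A with NRP1, SEMA3C with NRP1 and SEMA4C with PLXNB2. In IGR37 there were 3 as well, namely SEMA4C with PLXNB2, SEMA3F with NRP2 and SEMA7A with PLXNC1. Only the pair of SEMA4C and PLXNB2 had both genes at log2 6 or above in both lines. There the ligand was higher in IGR37 by 0.94 while the receptor was lower by 1.15 on the log2 scale. SEMA3F with NRP2 counted in IGR37 alone because NRP2, at 5.46 and 6.14, crossed the minimum on 1 of its 11 probe sets. Both of these genes lay within 2-fold. The counts thus depend on the minimum and on the choice of pairs, and no share over other gene pairs was computed. For SEMA7A and PLXNC1 the ligand differed by 0.07 and the receptor by 5.28. SEMA6A, at 9.39 in IGR37, stood beside PLXNA2 at 4.26 and PLXNA4 at 3.98, both under the minimum. SEMA5A stood beside PLXNB3, which was under the minimum in both lines. Levels of different genes come from different probes and are not compared with each other.

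The genes that work with plexins and neuropilins were counted in 6 lists. Of 64 measured, 46 reached log2 6, of which 6 were at least 2-fold higher in IGR37, 11 were lower by as much and 29 within 2-fold, with a median of -0.21. Over all genes the shares were 11.4% higher and 9.50% lower. Centring the arrays on housekeeping genes gave 4 higher and 17 lower. Of the 23 housekeeping genes at log2 6 or above, 3 were themselves at least 2-fold higher in IGR37 and 0 lower. The same centring moved the median of all genes by more than 0.1, from 0.07 to -0.24, and their split from 973 higher and 808 lower to 634 and 1243, while the members stayed at 3 and 4.

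Among VEGF ligands and receptors, 4 of 7 measured reached the minimum, and 2 were at least 2-fold lower. VEGFC, the lymphatic ligand that binds NRP2, was at log2 8.57 in IGR39 against 3.60 in IGR37, and VEGFA, the main angiogenic ligand, at 8.50 and 6.99. VEGFB was at 7.12 and 7.73 and PGF, the placental growth factor, at 6.95 and 6.97. The receptor genes FLT1, KDR and FLT4 stayed under log2 6 in both lines, with KDR at 2.76 and 3.11.

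Among 14 measured co-receptors, 4 reached the minimum and 1 was at least 2-fold lower. ITGB1, an integrin subunit through which SEMA7A signals, was at 11.91 in IGR39 against 9.85 in IGR37. MET, which associates with B plexins, was at 8.79 and 8.60, ERBB2 at 6.80 and 6.66, and L1CAM, a partner of NRP1 in the response to SEMA3A, at 8.78 and 8.55. These 3 lay well within 2-fold.

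Of 10 measured GTPases that bind plexins or are switched off by them, 9 reached the minimum, and of these 3 were lower by at least 2-fold and 0 higher. RND3, which binds the cytoplasmic part of plexins, was at 11.51 in IGR39 against 7.98 in IGR37. RRAS, a substrate of the plexin GTPase-activating domain, was at 8.42 and 5.24, and RAP1B, another substrate, at 10.99 and 9.41. RRAS2 was at 7.99 and 7.02, a difference of -0.97 just inside the limit. RAP1A was at 8.07 and 8.67, and RHOA and RAC1 were alike, at 11.89 and 11.95 and at 12.02 and 11.83.

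Of 8 exchange factors and GTPase-activating proteins, all 8 reached the minimum, with 2 higher by at least 2-fold and 0 lower. FARP2, an exchange factor released from PLXNA1 upon SEMA3A binding, was at 5.12 in IGR39 against 7.33 in IGR37, and its relative FARP1 at 6.54 and 8.27. ARHGEF11 and ARHGEF12, which couple B plexins to RHOA, were at 6.17 and 6.98 and at 7.94 and 7.26. TIAM1, ARHGAP35 and ARHGAP21 differed by -0.82, -0.75 and -0.72, and under centring on housekeeping genes these 3 passed the 2-fold limit as lower.

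The cytoplasmic effectors divided, with 3 of 15 at the minimum at least 2-fold higher, 5 lower and 7 within 2-fold. The MICAL genes, whose products oxidise actin downstream of plexins, went different ways: MICAL1 was at 5.70 in IGR39 against 9.10 in IGR37, MICAL2 at 9.28 and 6.35, and MICAL3 at 7.10 and 5.06. The collapsin response mediators DPYSL3 and DPYSL2 were at 9.41 and 5.72 and at 10.54 and 9.03, both lower, while CRMP1 was at 6.10 and 6.47. FYN, a kinase that acts at A plexins, was at 5.44 and 8.71. The LIM kinases, which inactivate cofilin, differed in sign, with LIMK1 at 7.02 and 5.97 and LIMK2 at 5.41 and 6.48. CFL1, which encodes cofilin, was at 13.39 and 13.25.

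Of 8 proteases that process semaphorins or neuropilins, 6 reached the minimum and 5 of these lay within 2-fold. ADAM10, a sheddase of NRP1 among other surface proteins, was at 8.58 in IGR39 against 9.64 in IGR37, a difference of 1.06 that falls under the 2-fold limit when a lowess trend is removed or the arrays are centred on housekeeping genes. FURIN, a protease that cleaves class 3 semaphorins, was at 7.10 and 7.18, and MMP14, which can process SEMA4D, at 6.91 and 7.0.

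**Figure D4:**
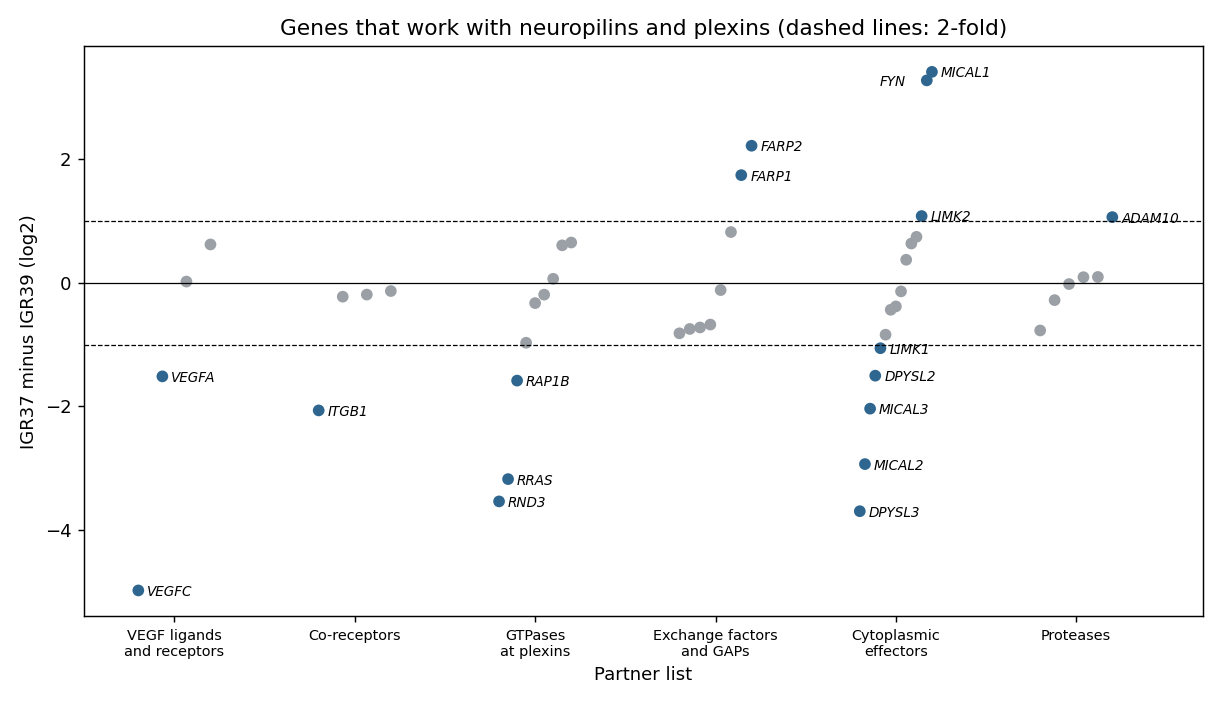
Difference between the lines for the 46 partner genes at log2 6 or above, by list, with genes at least 2-fold apart in blue and named. VEGFC, DPYSL3, RND3 and RRAS lie lowest, and MICAL1, FYN and FARP2 highest, while most co-receptors and proteases lie near 0.

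The position of the genes that differed was read from RefSeq gene order, with the 5 nearest named and measured genes on each side. SEMA6A on chromosome 5 had 10 such neighbours, of which 4 reached log2 6 and all 4 lay within 2-fold, with a median difference of -0.45. PLXNC1 on chromosome 12 had 3 at that level, all within 2-fold, among them CRADD at 6.57 and 6.03. SEMA5A on chromosome 5 had 4 and PLXNB2 on chromosome 22 had 5, again all within 2-fold. Over all 8501 genes at this level, 79% lay within 2-fold. These 4 members were chosen for a difference of at least 2-fold, so exceeding neighbours within 2-fold follows from that choice.

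Around NRP1 on chromosome 10, more neighbours differed. Of 6 at log2 6 or above, 2 were at least 2-fold lower, 1 was higher and 3 lay within 2-fold, with a median of -0.83. ITGB1 was at 11.91 and 9.85, and KIF5B, a kinesin heavy chain gene, at 10.22 and 8.89. EPC1, PARD3 and CUL2 differed by -0.87, -0.79 and -0.50, and CREM, a cyclic AMP-responsive factor, was higher in IGR37, at 5.08 and 9.15. The difference of NRP1 was larger than each of these. On chromosome 7, SEMA3A and SEMA3C were in each other's neighbourhood, and no other neighbour of either that reached log2 6 was 2-fold apart. Few did reach it: SEMA3A had 2 such neighbours and SEMA3C 3, each counting the other. Dimmer neighbours went both ways. CACNA2D1, between the 2 genes, was at 5.28 and 3.93, and ELAPOR2, beyond SEMA3A, at 4.13 and 5.95. GNAI1, on the other side of SEMA3C, was at 6.62 and 6.64, and DMTF1, on the far side of SEMA3A, at 7.27 and 7.18. Copy number was not measured here, and its part in these differences was not tested.

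**Figure D5:**
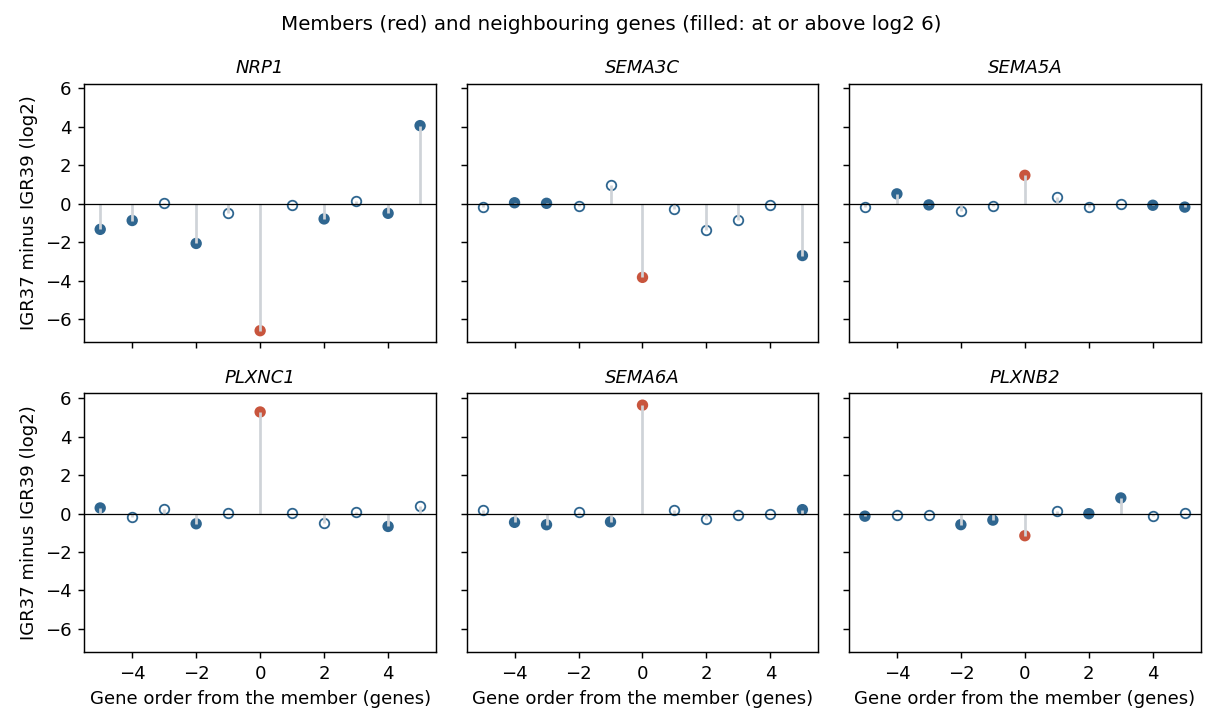
Difference between the lines for 6 members (red) and their 5 nearest named genes on each side in gene order (filled at log2 6 or above in the brighter line, open below it). Neighbours of SEMA6A, PLXNC1, SEMA5A and PLXNB2 lie within 2-fold, as do 79% of all genes at log2 6 or above. ITGB1 and KIF5B beside NRP1 are also lower in IGR37, and SEMA3A is the lower point to the right of SEMA3C.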

How the data were processed

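Total RNA of IGR39 and IGR37 was hybridised to 1 array each. Each deposited value is the log2 level of a probe set. The authors used affy and RMA, per the submitters' processing notes. The versions used and the set of arrays normalised together were not given in the sources used here. RMA equalises the arrays' distributions and compresses differences at low levels. Probe sets with 1 platform symbol (41091) were used, with symbols updated by gene identifier to RefSeq (GRCh38.p14) for 41037. Each gene took its probe set with the highest mean. No test, p-value or standard error is possible with 1 array per line, so precision is limited by the number of arrays.

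All members are accounted for, those at log2 6 or above by both values. Partner genes at least 2-fold apart at that level are all named, and of the others only some. Members, lists, ligand pairs and motifs were chosen with earlier results of these data known. The alternatives were other minimum levels, probe set rules, array scalings and a 4-fold limit. The calculation was tested on simulated data. Python 3.11.15, numpy 2.4.6, pandas 2.3.3, statsmodels 0.14.6 and matplotlib 3.10.9 were used.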

Additional observations from a re-analysis of the deposited data

How the results depend on the processing

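No paired analysis was possible because each line has 1 array, and for the same reason no replicate could be left out. The 3 members at least 2-fold higher stayed 3 in number under every alternative except the 4-fold limit, where SEMA5A dropped out and 2 were left. The 4 lower members became 2 with the mean over all probe sets (NRP1 and SEMA3C) and 2 once _x_at and _s_at probe sets were left out (NRP1 and SEMA3A). In the latter, SEMA3C had no probe set left and PLXNB2 turned to 0.27 on a dim one. The members' median moved to 0.50 with the mean over all probe sets, when 8 members reached the minimum. Of 101 recomputed member differences, 90 stayed within the SD between a gene's probe sets, 10 moved beyond it and 1, that of PLXNB2, changed sign from a difference of at least 2-fold. Most of these alternatives kept a member's probe set or shifted all genes alike, so many of the 90 had little room to move. With the mean over all probe sets, each of the 7 members at least 2-fold apart moved beyond that SD, as did NRP2. Their sizes thus depend on the choice of probe set. PLXNA1, SEMA4F and SEMA7A, whose differences lay near 0, also changed sign under some alternatives, within that SD. SEMA5A gave 2.27 when the probe set with the highest single value was used. Partner genes higher in IGR37, 6 of 46 at first, were 3 of 30 with the mean over all probe sets. They were 3 of 30 once _x_at and _s_at probe sets were left out, and 3 of 46 at the 4-fold limit. All genes gave 973 of 8501, then 588 of 5878, 678 of 5655 and 315 of 8501. Partner genes lower in IGR37, 11 of 46 at first, were 6 of 30 after leaving those probe sets out. They were 7 of 46 at the 4-fold limit and 17 of 45 after centring on housekeeping genes. All genes gave 808 of 8501, then 570 of 5655, 349 of 8501 and 1243 of 8580. The cause was not tested. Levels near background limit how large a difference can be measured, since the dimmer line lay under log2 6 for 6 of the 7 members at least 2-fold apart and for 50.9% of all such genes.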

Other observations

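One further probe set carries the names of both SEMA3B and the microRNA gene MIR6872 and so entered no gene value. It was at log2 5.44 in IGR39 against 5.45 in IGR37, under the minimum in both lines, beside 4.15 and 4.40 on the probe set of SEMA3B alone.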
